A study of Rattus norvegicus with 20 samples.

Results

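The genes of the unfolded protein response, the integrated stress response and the heat shock response were examined in inguinal white adipose tissue (iWAT, a subcutaneous fat depot) of ZSF1 rats. They are 48 genes chosen by symbol out of the 32545 genes of the count table. They fall into 6 roles, with 15 chaperones and folding enzymes of the endoplasmic reticulum (ER), 7 genes of ER-associated degradation, 8 stress sensors and transcription factors, 8 feedback genes and other targets of the transcription factor ATF4, 5 enzymes of amino acid and one-carbon metabolism and 5 cytosolic heat shock proteins. All 48 symbols were found, in 49 rows, since Nupr1 has 2 rows. Of these, 46 rows were tested, and the others, Derl3 and both rows of Nupr1, had at most 2 reads in any library.

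RNA was sequenced from 5 male rats in each of 4 groups. Lean animals were ZSF1 rats that are not deficient for the leptin receptor, and Obese animals were ZSF1 rats deficient for both alleles of Lepr, the leptin receptor gene, in which appetite is uncurbed. Food matched animals were obese rats that were given, each week, the amount of food that the Cmpd 1 group had eaten the week before. Cmpd 1 animals were obese rats fed chow that contained Cmpd 1, an inhibitor of the kinases PKCα and PKCβ. All 4 groups, the Lean controls included, ate the high-carbohydrate chow Purina 5008, were 21 to 22 weeks old at the start of the 10-week study and about 32 weeks old at its end. The Food matched and Cmpd 1 groups share the Lepr deficiency with the Obese group, so that these rats are treated obese animals and not a further lean control.

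When unfolded proteins gather in the ER, the sensors Ern1 (IRE1α), Eif2ak3 (PERK) and Atf6 start the unfolded protein response. IRE1α splices the mRNA of Xbp1, ATF6 is cut and enters the nucleus, and both lead to more chaperones and more degradation of ER proteins. PERK phosphorylates the translation factor eIF2α, as do other kinases that sense lack of amino acids or haem, and this integrated stress response slows protein synthesis while it favours translation of Atf4, whose targets include amino acid enzymes, Chac1 and Fgf21. The heat shock response is a separate one, run by heat shock factors in the cytosol. Adipocytes and the macrophages of fat both secrete much protein, and ER stress has been described in obese fat.

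Short promoter elements are known to bind the factors of these responses, and those found in the members are shown first, so that the levels can be read beside them. A promoter window of 250 bases before to 50 bases after the start was given in RefSeq (build GRCr8) for 40 of the 48 genes. The ER stress response element was searched on both strands as CCAAT, then 9 bases of any kind, then CCACG. It was found in the windows of 8 of these 40 genes, which are 6 of 12 chaperones, Xbp1 and Derl3, and in 22 of all 33469 windows (0.0657%). Windows around it follow for Xbp1 and 5 of the chaperones, read along the gene's own strand from 5′ to 3′, with the element in capitals, and an element that lies on the other strand begins with CGTGG and ends with ATTGG.

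Hspa5 (chr3:38452963-38453001, + strand, 43 bases before the start): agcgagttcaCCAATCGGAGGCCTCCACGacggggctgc
Hsp90b1 (chr7:23012441-23012479, - strand, 176 bases before the start): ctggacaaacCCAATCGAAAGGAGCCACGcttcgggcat
Hsp90b1 (chr7:23012337-23012375, - strand, 72 bases before the start): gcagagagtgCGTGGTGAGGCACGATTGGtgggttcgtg
Calr (chr19:40213125-40213163, + strand, 232 bases before the start): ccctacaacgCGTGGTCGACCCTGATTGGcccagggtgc
Dnajc3 (chr15:102432524-102432562, + strand, 133 bases before the start): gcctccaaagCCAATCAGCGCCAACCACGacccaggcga
Creld2 (chr7:121789229-121789267, + strand, 145 bases before the start): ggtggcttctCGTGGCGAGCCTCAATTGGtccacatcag
Xbp1 (chr14:84604548-84604586, + strand, 65 bases before the start): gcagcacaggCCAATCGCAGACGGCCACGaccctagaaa

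The core of the amino acid response element, to which ATF4 and its partners bind, was searched in the same way as TGATGNAAN. It was present in the windows of Chac1, Trib3, Fgf21, Nupr1 and Herpud1, which is 4 of 8 feedback genes and other ATF4 targets, and in 1328 of all windows (3.97%). None of the 5 amino acid and one-carbon enzymes held it in this window. In the 3 windows shown the core lies on the other strand and so ends with CATCA.

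Chac1 (chr3:126795953-126795981, + strand, 168 bases before the start): cttctccgccGTTGCATCActcctgctag
Trib3 (chr3:161275537-161275565, - strand, 22 bases before the start): ttagctcaggTTTACATCAgccgggcggg
Fgf21 (chr1:105221502-105221530, - strand, 144 bases before the start): agacccccccATTGCATCAttcgtccagg

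The heat shock element, written as GAA, TTC and GAA with 2 bases of any kind between them, was found for Hspa8 and Hsph1 and in 267 of all windows (0.798%). No member's window held more than 1 kind of these 3 elements, so that no match overlapped another kind, and Hsp90b1 held the first kind at 2 places. A match is a description of the letters only, and binding was not measured in this study.

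Each library held 31716457 to 74784655 counted reads, the fewest in Cmpd 1 rat 4. Levels are given as CPM, a gene's reads relative to the library total after scaling by the trimmed mean of M-values. As a check of the labels, Lepr was at 2.95 to 12 CPM in Lean animals 1 to 5 and at 1.24 to 2.32 CPM in the 15 obese rats, without overlap. The adipocyte markers Adipoq and Fabp4 were high in every library, with at least 2761 and 6774 CPM. Lean rats 1 and 2 also held transcripts of skeletal muscle, with the 7 muscle markers summing to up to 4967 CPM, against at most 80.1 CPM in any obese rat, and the counts for Obese versus Lean are also given without these 2 rats. In such bulk samples, fewer cells of a type and less RNA per cell cannot be told apart.

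Per kilobase of the length that the table gives for each gene, the members at the highest level over the 20 libraries were Atf5, a transcription factor, at 492 CPM per kb and the calcium-binding lectin chaperone Calr at 387. They were followed by P4hb at 356, Pdia3 at 308 and Hspa5 at 302 CPM per kb. The sensors were low in comparison, with Atf6 at 20.3, Eif2ak3 at 9.39 and Ern1 at 4.98 CPM per kb. At the low end of the tested rows, Chac1 was at 0.268, the row named Hspa8 at 0.245 and Hsp90aa1 at 0.0142 CPM per kb. They had 2 to 55, 12 to 56 and 0 to 6 reads a library, so that counting error weighs more on these 3 than on the other tested members.

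Differences were tested in 1 model across all 17653 genes that passed the filter on low counts. A gene is called a DEG when it differed over 1.5-fold with an adjusted p under 0.05, and a wider call takes an adjusted p under 0.05 at any fold. For Obese versus Lean, the contrast of disease-associated changes, 7 members rose and 3 fell as DEGs, where 11.3% of all genes were higher and 11% lower. At an adjusted p under 0.05, 20 of 46 were higher and 6 lower, beside 23.7% and 24.5% of all genes. Without Lean rats 1 and 2, 6 rose and 3 fell as DEGs, and 17 were higher and 6 lower at an adjusted p under 0.05. Cmpd 1 versus Food matched is the contrast of Cmpd 1-associated changes at a matched food intake. In it, 4 members fell and 0 rose as DEGs (background 4.65% lower and 1.54% higher). These 4 were Sdf2l1, Chac1, Mthfd2 and the row named Hspa8. That row lies on chromosome 5, whereas RefSeq places Hspa8 on chromosome 8, so it cannot be read as the level of that gene. Its call was also lost when any of 6 rats was left out. At an adjusted p under 0.05, 22 of 46 were lower in this contrast, that row included, and 4 higher, beside 11.4% in each direction over all genes. The share of members that were lower with Cmpd 1 was thus above that of all genes, and most of them were ER chaperones.

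**Figure D1:**
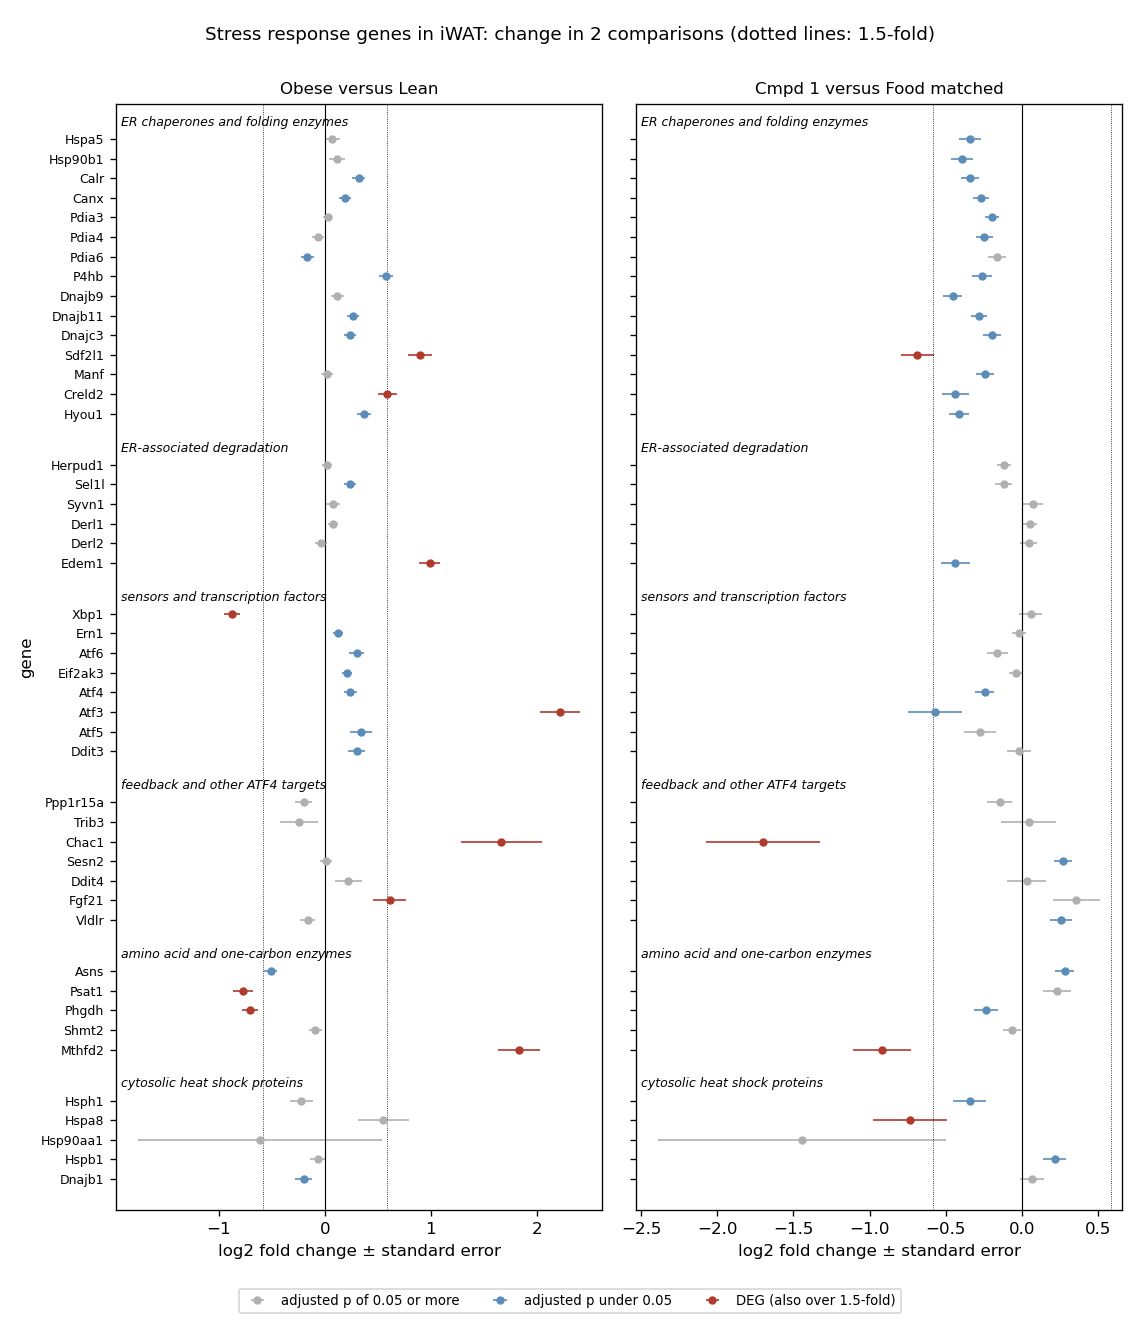
Log2 fold change of the 46 tested members with its standard error, for Obese versus Lean (left) and Cmpd 1 versus Food matched (right), by role, with DEGs in red, members with an adjusted p under 0.05 below 1.5-fold in blue and the others in grey. The 15 ER chaperones all lie to the left of 0 in the right panel, whereas in the left panel they spread from −0.17 for Pdia6 to 0.90 for Sdf2l1.

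The ER chaperones and folding enzymes were lower in Cmpd 1 than in Food matched animals. Of 15, 14 fell at an adjusted p under 0.05, all but Pdia6 (304 ± 11.7 CPM with Cmpd 1 against 340 ± 31.5 CPM; SD, n = 5 in each group here and below). Their median log2 fold change was −0.28, where that of all genes was 0.01, and the range ran from −0.69 to −0.16. Of all genes, 11.4% were lower at this threshold, and in Obese versus Lean 23.7% were higher and 24.5% lower. In Obese versus Lean, 8 of the 15 rose and 1, Pdia6, fell, and in both comparisons the changes were small, since only Sdf2l1 and Creld2 passed 1.5-fold in either. With each rat left out in turn, the number of chaperones that passed was 13 to 15 for lower in Cmpd 1 versus Food matched and 8 for higher in Obese versus Lean.

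Hspa5 (BiP, the main HSP70 chaperone of the ER) averaged 742 ± 85.3 CPM in Lean, 780 ± 32.2 in Obese, 879 ± 69.5 in the Food matched group and 693 ± 55.8 CPM under Cmpd 1. It was 1.27-fold lower in Cmpd 1 than in Food matched animals (log2 fold change −0.34, standard error 0.07, adjusted p = 0.0026), and its Obese and Lean levels did not pass the test (adjusted p = 0.45). Hsp90b1 (GRP94, the HSP90 of the ER) followed the same order, with 727 ± 65.8, 788 ± 32.7, 889 ± 73.6 and 676 ± 65.2 CPM. Its 5 Cmpd 1 rats lay below all 5 Food matched rats (log2 fold change −0.40, standard error 0.07, adjusted p = 0.00070). Hyou1, which exchanges nucleotides on BiP, rose with obesity from 104 ± 7.67 to 134 ± 8.05 CPM (adjusted p = 9.6e-05) and stood at 158 ± 10.7 CPM in the Food matched group and 119 ± 10.3 CPM under Cmpd 1 (adjusted p = 0.00026).

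Sdf2l1 (ENSRNOG00000001859, chromosome 11, 88122271 to 88124513), which keeps BiP clients in solution, was the chaperone that differed most. It was at 13.8, 16.9, 19.7, 19.8 and 17.8 CPM in the Lean rats and at 28.2, 29.8, 35.8, 36.4 and 33.8 CPM in the Obese rats. Food matched rats had 46.2, 48.8, 42.4, 42.2 and 35.3 CPM and Cmpd 1 rats 29.2, 30.1, 24.1, 21.9 and 28.0 CPM. Lean rats were all below Obese rats, and Cmpd 1 rats all below Food matched rats. It was 1.86-fold higher in Obese than in Lean animals (log2 fold change 0.90, standard error 0.11, adjusted p = 9.2e-07) and 1.61-fold lower in Cmpd 1 than in Food matched animals (−0.69, standard error 0.11, adjusted p = 0.00025).

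Creld2 (ENSRNOG00000004659, chromosome 7, 129812789 to 129819634) encodes an ER protein that is induced by ER stress, and its promoter element is printed above. Lean rats had 17.8, 17.3, 21, 21.6 and 16.7 CPM, and Obese rats 27.0, 26.1, 30.2, 27.7 and 31.1 CPM. In Food matched rats it was at 43.0, 37.3, 41.5, 35.2 and 34.4 CPM, and in Cmpd 1 rats at 29.3, 30.4, 28.7, 23.0 and 29.8 CPM. All Food matched rats were thus above all others, and Cmpd 1 and Obese rats overlapped. The rise in Obese animals was 1.5-fold (log2 fold change 0.59, standard error 0.09, adjusted p = 1.2e-05). It lay so close to the fold threshold that leaving out any of 5 rats (Lean 1, 2 and 5, Obese 3 and 5) took it below, with 0.53 without Lean rats 1 and 2. Cmpd 1 animals were 1.35-fold below Food matched animals (−0.44, standard error 0.09, adjusted p = 0.0013).

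Among the other chaperones, the disulfide isomerases did not move alike with obesity. P4hb rose 1.49-fold from a Lean level of 657 ± 57.5 to 978 ± 59.8 CPM in Obese animals (adjusted p = 4.3e-07) and was at 1041 ± 78.7 CPM in the Food matched group and 867 ± 49.5 CPM under Cmpd 1. Pdia3, Pdia4 and Pdia6 were at 580 ± 31.2, 108 ± 3.45 and 355 ± 27.7 CPM in Lean and, in the same order, at 591 ± 9.04, 104 ± 7.63 and 317 ± 8.63 CPM in Obese animals, and of these only Pdia6 passed the test (log2 fold change −0.17, adjusted p = 0.027). The call for Pdia6 was lost when any of 6 rats (Lean 3, 4 and 5, Obese 1, 2 and 4) was left out.

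The lectin chaperones, which hold glycoproteins during folding, rose in Obese animals, Calr from 611 ± 39.9 to 761 ± 46.8 CPM and Canx from 621 ± 50.8 to 709 ± 32.5 CPM. With Cmpd 1 they were at 668 ± 35.0 and 619 ± 26.9 CPM, below all Food matched rats (846 ± 60.7 and 746 ± 29.8 CPM). The rise of Canx did not pass without Lean rats 1 and 2 (adjusted p = 0.078), which brought the count of chaperones that rose from 8 to 7. The smallest adjusted p among the chaperones for Cmpd 1 versus Food matched was that of the BiP co-chaperone Dnajb9, at 27.3 ± 1.51 against 37.4 ± 3.08 CPM (log2 fold change −0.45, standard error 0.06, adjusted p = 8.8e-05). The remaining ones, Dnajb11, Dnajc3 and Manf, were 1.15-fold to 1.22-fold lower with Cmpd 1, and the call for Dnajc3 was lost without Food matched rat 1 or 3 or Cmpd 1 rat 4 (adjusted p up to 0.066).

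Transcripts of other cells also differed between the groups. The 12 macrophage markers summed to 2248 to 3007 CPM in Lean, 6195 to 8347 in Obese, 6820 to 11891 in Food matched and 4179 to 6124 CPM in Cmpd 1 animals. Of the 12, 8 were higher and 4 lower in Obese versus Lean (23.7% and 24.5% of all genes). In Cmpd 1 versus Food matched 9 were lower (11.4% of all genes), at an adjusted p under 0.05 in both comparisons. The plasma cell list summed to 35.9 to 81.5, 108 to 141, 124 to 224 and 51.9 to 92.8 CPM in the same order, most of it from Sdc1, which other cells also make. Mzb1 and Tnfrsf17, which mark plasma cells more strictly, did not exceed 0.291 and 0.0738 CPM in any library. Fibroblast markers summed to 6693 to 9192 CPM in Lean, 10458 to 17746 in Obese, 9651 to 14121 in Food matched and 9016 to 10195 CPM in Cmpd 1 animals. Of these 6 markers, 3 were higher and 1 lower in Obese versus Lean, and 1 was lower and 0 higher in Cmpd 1 versus Food matched. The row of Col1a2, which is among the 6, did not exceed 0.110 CPM in any library. The 5 B cell markers did not exceed 3.06 CPM in sum. What part these cells have in the levels of the chaperones and of the other members was not tested.

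**Figure D2:**
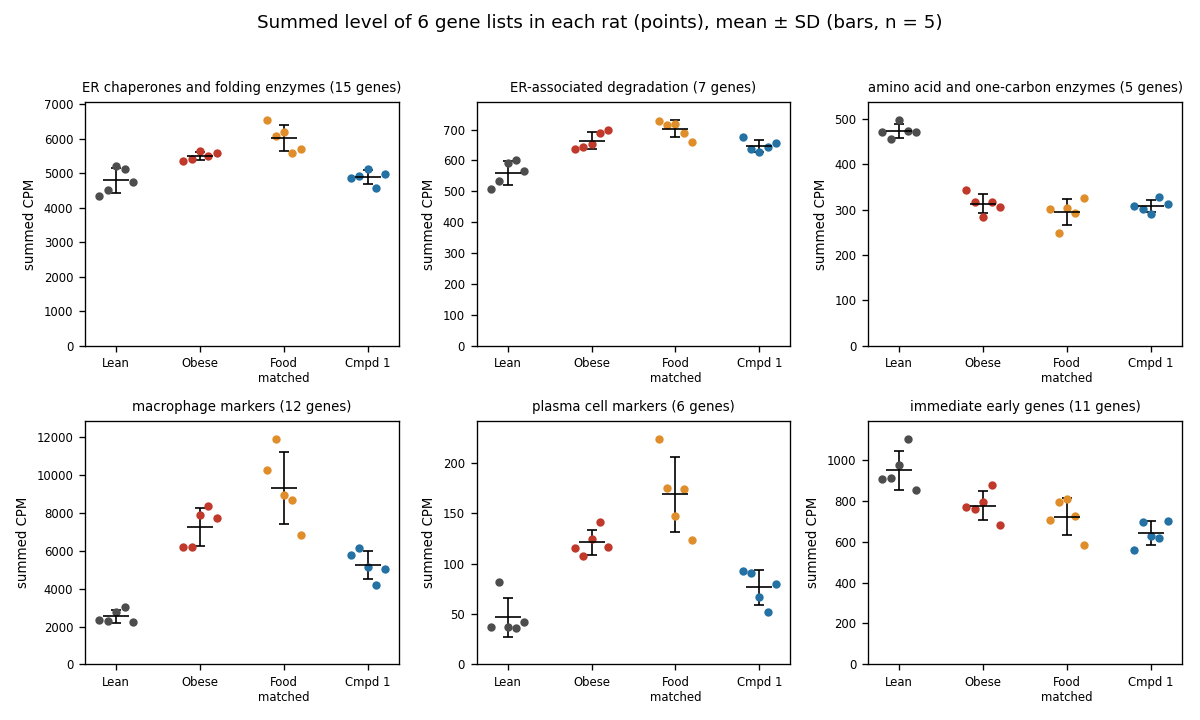
Summed CPM of 3 groups of members (top) and of 3 lists of other genes (bottom) in each rat, with points from left to right for rats 1 to 5 of a group and bars for mean ± SD. The chaperone sum was highest in Food matched rats (5597 to 6528 CPM) and lower in Cmpd 1 rats (4570 to 5126 CPM), and the macrophage markers had the same order of groups among obese rats.

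In ER-associated degradation, which removes misfolded proteins from the ER, 2 of 6 tested genes, Edem1 and Sel1l, rose in Obese animals and 0 fell. Of all genes, 23.7% were higher and 24.5% lower in that comparison. With Cmpd 1 against Food matched, 1 of 6, Edem1, fell, beside 11.4% of all genes. Edem1 (ENSRNOG00000055365, chromosome 4, 140886545 to 140915779) binds misfolded glycoproteins and is a target of XBP1. The Lean rats had 48.8, 58.2, 66.7, 71.1 and 61.7 CPM, the Obese rats 107, 110, 122, 136 and 132 CPM, the Food matched rats 151, 152, 144, 129 and 113 CPM, and the Cmpd 1 rats 110, 99.3, 99.6, 92.0 and 108 CPM. Every obese rat, treated or not, was above every Lean rat. It was 1.98-fold higher in Obese than in Lean animals (log2 fold change 0.99, standard error 0.10, adjusted p = 6.1e-08) and 1.35-fold lower in Cmpd 1 than in Food matched animals (−0.44, standard error 0.10, adjusted p = 0.0028), also without overlap.

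Sel1l (ENSRNOG00000004464, chromosome 6, 115572649 to 115616859), the scaffold of the ubiquitin ligase complex, was at 160, 178, 206, 212 and 200 CPM in Lean and 216, 218, 225, 232 and 234 CPM in Obese rats. Food matched rats had 241, 241, 234, 232 and 228 CPM and Cmpd 1 rats 225, 212, 214, 214 and 216 CPM. The rise in Obese animals was 1.18-fold (log2 fold change 0.24, standard error 0.06, adjusted p = 0.0022). The ligase itself, Syvn1, was at 59.6 ± 5.48 CPM in Lean as against 62.8 ± 1.55 CPM in Obese animals, and it was at 62.9 ± 2.61 CPM in the Food matched group and 66.0 ± 7.20 CPM under Cmpd 1. The Derlin channel proteins Derl1 and Derl2 had group means of 121 to 132 CPM and 36.5 to 38.1 CPM, and Herpud1, an adaptor of the complex, of 89.6 to 102 CPM, the last of which was highest in Food matched animals. None of these 4 genes passed the test in any comparison of the main model, and Edem1 was the member of this role with a DEG call. The role's counts moved in other fits. In Cmpd 1 versus Food matched 2 were lower by DESeq2 or without Lean rat 1 or 3 or Food matched rat 5. In Food matched versus Obese 1 was higher by DESeq2 or without Food matched rat 5. In Cmpd 1 versus Obese 1 was lower by DESeq2 or without Lean rat 1.

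All 8 sensors and transcription factors passed the test in Obese versus Lean, 7 higher and Xbp1 lower, beside 23.7% and 24.5% of all genes. With Cmpd 1, 2 of 8 fell, beside 11.4% of all genes. The 3 sensors rose by small amounts in Obese animals, Atf6 from 82.6 ± 9.66 to 102 ± 7.03 CPM (adjusted p = 0.0012), Eif2ak3 from 39.0 ± 2.46 to 45.1 ± 1.37 CPM (adjusted p = 0.00054) and Ern1 from 33.1 ± 1.69 to 36.2 ± 1.98 CPM (adjusted p = 0.030). The call for Ern1 did not hold without Lean rats 1 and 2 (adjusted p = 0.12) or without Lean rat 1 or 4 or Obese rat 4, nor when libraries were scaled by their totals alone. With Cmpd 1 the sensors were at 92.7 ± 3.77, 41.7 ± 1.75 and 34.0 ± 1.30 CPM and none passed the test against Food matched animals.

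Xbp1 (ENSRNOG00000010298, chromosome 14, 85753760 to 85758145) is the transcription factor made after IRE1α has spliced its mRNA, and the counts do not separate the spliced from the unspliced form. It was at 170, 149, 185, 196 and 187 CPM in the Lean rats and at 92.6, 99.4, 103, 91.9 and 96.6 CPM in the Obese rats. The Food matched rats had 104, 98.1, 92.3, 86.9 and 97.1 CPM and the Cmpd 1 rats 99.9, 91.6, 116, 98.0 and 91.6 CPM. All 15 obese rats were thus below all Lean rats, and the 3 obese groups overlapped. Xbp1 was 1.83-fold lower in Obese than in Lean animals (log2 fold change −0.87, standard error 0.07, adjusted p = 7.6e-09), while 8 chaperones and Edem1 were higher in the same animals.

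Atf3 (ENSRNOG00000003745, chromosome 13, 109817728 to 109849632), a transcription factor induced by ATF4 and by many other stress and immune signals, rose most of all members. Lean rats had 9.24, 11, 14.7, 20.7 and 9.08 CPM and Obese rats 56.6, 51.5, 61.7, 69.5 and 61.5 CPM. In Food matched rats it was at 63.9, 76.4, 61.2, 66.7 and 55.5 CPM and in Cmpd 1 rats at 54.1, 49.5, 42.7, 32.8 and 38.4 CPM. The lowest obese rat was above the highest Lean rat, and the Cmpd 1 rats were all below the Food matched rats. Obese animals had 4.65-fold the Lean level (log2 fold change 2.22, standard error 0.19, adjusted p = 7.7e-09), and Cmpd 1 animals were 1.49-fold below Food matched animals (−0.57, standard error 0.18, adjusted p = 0.024), a call that was lost without Food matched rat 2 or Cmpd 1 rat 4 or 5 (adjusted p up to 0.074).

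Atf4 mRNA itself moved less, at 235 ± 14.4 CPM in Lean, 278 ± 15.5 in Obese, 287 ± 18.9 in the Food matched group and 242 ± 20.9 CPM under Cmpd 1. It was 1.18-fold higher in Obese than in Lean animals (adjusted p = 0.0027) and 1.18-fold lower in Cmpd 1 than in Food matched animals (adjusted p = 0.0065), and the protein, which is mostly set by translation, was not measured here. Atf5 and Ddit3 (CHOP, which promotes cell death under lasting ER stress) rose in Obese animals from 442 ± 46.4 to 559 ± 55.5 CPM (adjusted p = 0.012) and from 34.1 ± 3.91 to 42.0 ± 4.11 CPM (adjusted p = 0.0041). With Cmpd 1 they were at 463 ± 54.5 and 39.8 ± 2.69 CPM, against 561 ± 91.6 and 40.4 ± 3.69 CPM in Food matched animals, and neither passed. The rise of Atf5 did not pass without Lean rats 1 and 2 (adjusted p = 0.081), so that with Ern1 the number of sensors and transcription factors that rose went from 7 to 5.

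**Figure D3:**
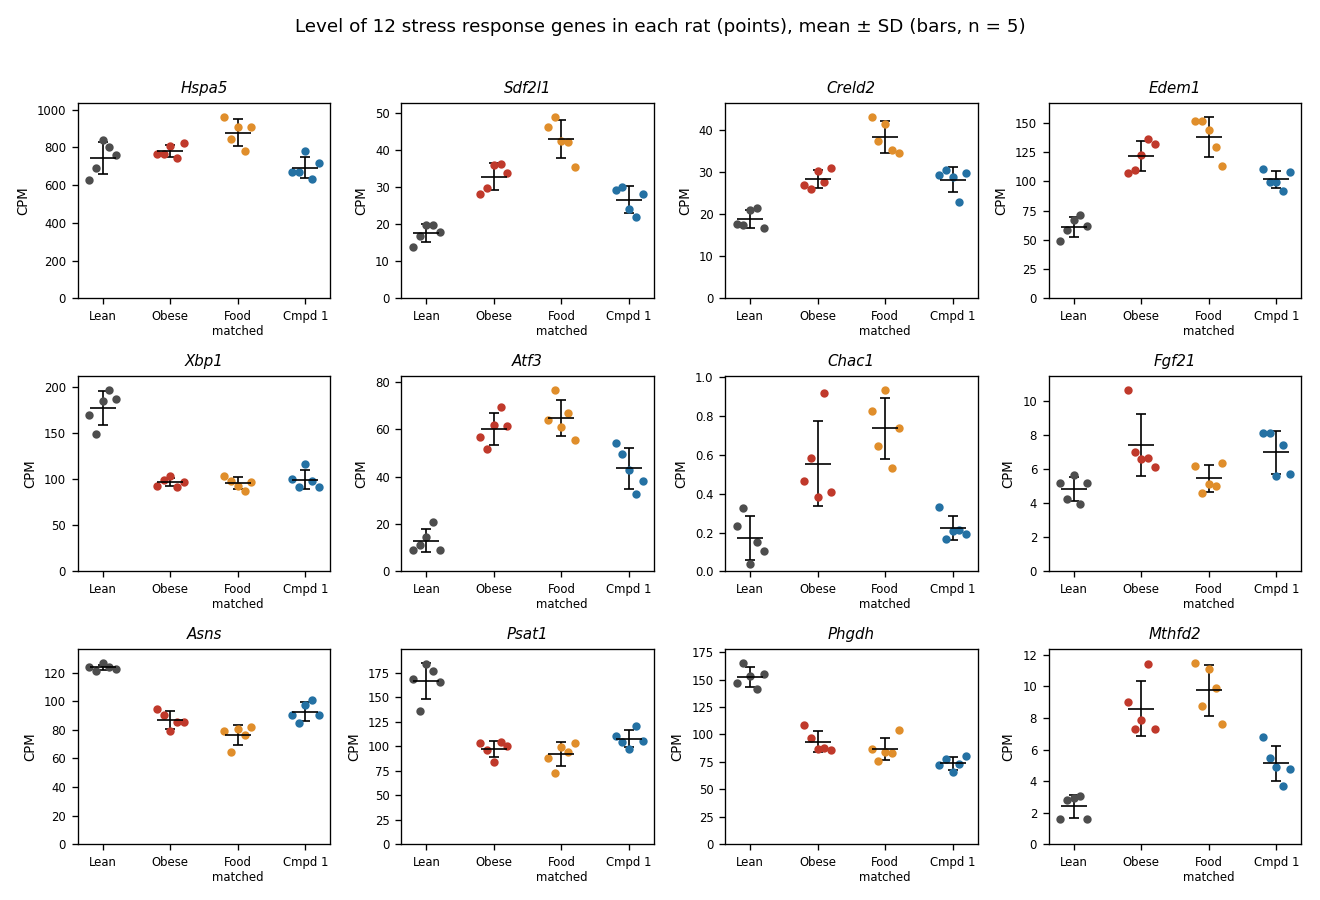
CPM of 12 members in each rat, with points from left to right for rats 1 to 5 of a group and bars for mean ± SD, each panel on its own linear axis from 0. Sdf2l1, Atf3, Chac1 and Mthfd2 were higher in every Obese than in every Lean rat and lower in every Cmpd 1 than in every Food matched rat, whereas Xbp1, Asns, Psat1 and Phgdh were lower in every obese rat than in every Lean rat.

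The feedback genes and other ATF4 targets did not move together. Of 7 tested, 2 rose in Obese animals, Chac1 and Fgf21, both as DEGs, and 0 fell, beside 23.7% higher and 24.5% lower of all genes. The count of 0 was not stable, since 1 was lower when Lean rat 1 or 5, Obese rat 1, 3 or 4 or Food matched rat 2 was left out, and 2 without Food matched rat 5 or with library totals as the only scaling. With Cmpd 1, Chac1 fell while Sesn2 and Vldlr rose, where 11.4% of all genes passed in each direction. Chac1 (ENSRNOG00000014387, chromosome 3, 111160205 to 111163425) encodes an enzyme that degrades glutathione and is a target of the ATF4 arm. It was at 0.235, 0.325, 0.0369, 0.151 and 0.107 CPM in Lean animals 1 to 5 and at 0.468, 0.581, 0.385, 0.921 and 0.411 CPM in Obese rats. In Food matched rats it was at 0.828, 0.647, 0.932, 0.533 and 0.741 CPM and in Cmpd 1 rats at 0.333, 0.168, 0.208, 0.214 and 0.193 CPM. The Cmpd 1 rats overlapped only with the Lean rats. It was 3.17-fold higher in Obese than in Lean animals (log2 fold change 1.66, standard error 0.38, adjusted p = 0.0012) and 3.25-fold lower in Cmpd 1 than in Food matched animals (−1.70, standard error 0.38, adjusted p = 0.0029), at a level of few reads.

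Fgf21 (ENSRNOG00000020990, chromosome 1, 101595579 to 101596822), a hormone that acts on fat and on energy use, was at 5.19, 4.24, 5.63, 3.93 and 5.20 CPM in Lean animals 1 to 5 and at 10.6, 6.99, 6.56, 6.66 and 6.11 CPM in Obese rats. Food matched rats had 6.20, 4.59, 5.13, 5.00 and 6.35 CPM and Cmpd 1 rats 8.08, 8.11, 5.58, 7.41 and 5.69 CPM. Obese rats were all above Lean rats, with Obese rat 1 far above the rest, and the Food matched rats overlapped with the Lean rats. The Obese animals were 1.53-fold above the Lean animals (log2 fold change 0.61, standard error 0.16, adjusted p = 0.0028), or 0.44 on the log2 scale without Obese rat 1, which is below the fold threshold, as it was without Lean rat 2 or 4. Cmpd 1 against Food matched animals did not pass the test (adjusted p = 0.11).

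Sesn2 and Vldlr ran the other way from Chac1. Sesn2, a stress-induced inhibitor of mTORC1 signalling, was at 45.1 ± 2.69, 45.3 ± 2.55, 41.7 ± 1.51 and 50.3 ± 4.18 CPM from Lean over Obese and Food matched to Cmpd 1 animals, and every Cmpd 1 rat was above every Food matched rat (log2 fold change 0.27, standard error 0.06, adjusted p = 0.0019). Vldlr, a receptor through which fat takes up lipoprotein lipids, was at 113 ± 8.14, 101 ± 7.79, 88.0 ± 10.3 and 105 ± 3.81 CPM in that order and was 1.20-fold higher in Cmpd 1 than in Food matched animals (adjusted p = 0.012). Ppp1r15a (GADD34, which reverses eIF2α phosphorylation; adjusted p = 0.051 for Obese versus Lean), Trib3 (an inhibitor of ATF4) and Ddit4 (an inhibitor of mTORC1) passed in no comparison of the model of all rats, with group means of 29.3 to 35.7, 4.26 to 5.04 and 27.7 to 32.3 CPM. Trib3 and Fgf21 share the amino acid response core with Chac1 in the windows printed above.

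The amino acid and one-carbon enzymes, which are classed as ATF4 targets, split. In Obese animals Mthfd2 rose and Asns, Psat1 and Phgdh fell, 1 higher and 3 lower of 5 tested, beside 23.7% and 24.5% of all genes. With Cmpd 1, 1 was higher, Asns, and 2 lower, Mthfd2 and Phgdh, beside 11.4% of all genes in each direction. Mthfd2 (ENSRNOG00000010833, chromosome 4, 115004448 to 115015965), the mitochondrial folate enzyme that is most abundant in dividing cells, was at 1.62, 2.81, 2.92, 3.09 and 1.64 CPM in Lean animals 1 to 5 and at 9.03, 7.29, 7.90, 11.4 and 7.29 CPM in Obese rats. It was at 11.4, 8.78, 11.1, 9.87 and 7.59 CPM in Food matched rats and at 6.78, 5.50, 4.89, 3.71 and 4.78 CPM in Cmpd 1 rats. Each group of this gene was apart from its comparator, and the Cmpd 1 rats lay between the Lean and the other obese rats. It was 3.55-fold higher in Obese than in Lean animals (log2 fold change 1.83, standard error 0.20, adjusted p = 2.0e-07) and 1.89-fold lower in Cmpd 1 than in Food matched animals (−0.92, standard error 0.19, adjusted p = 0.0017).

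Psat1 and Phgdh, which with a further step make serine from a glycolytic intermediate, fell together. Psat1 (ENSRNOG00000013971, chromosome 1, 233124092 to 233145941) was at 169, 136, 184, 177 and 165 CPM in Lean and 104, 96.1, 83.8, 104 and 100 CPM in Obese rats, and at 88.7, 72.6, 99.9, 94.4 and 104 CPM in Food matched rats, with 110, 104, 97.3, 121 and 106 CPM under Cmpd 1. It was 1.70-fold lower in Obese than in Lean animals (log2 fold change −0.77, standard error 0.09, adjusted p = 7.3e-07). Phgdh (ENSRNOG00000019328, chromosome 2, 200484246 to 200513564) was at 147, 165, 153, 141 and 155 CPM in Lean and 109, 96.6, 87.2, 88.1 and 86.1 CPM in Obese rats, and at 87.1, 76.3, 84.2, 83.3 and 104 CPM in Food matched rats, with 72.1, 78.0, 65.4, 73.5 and 80.6 CPM under Cmpd 1. It was 1.63-fold lower in Obese than in Lean animals (−0.71, standard error 0.08, adjusted p = 3.1e-07). All obese rats were below all Lean rats for both genes.

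With Cmpd 1 these enzymes did not move alike. Psat1 did not pass the test against Food matched animals (log2 fold change 0.23, standard error 0.09, adjusted p = 0.076). Phgdh was a further 1.18-fold lower than in Food matched animals (log2 fold change −0.23, standard error 0.08, adjusted p = 0.037), and it was the member that was lower in both comparisons. That call was lost when any of 5 rats was left out, with an adjusted p of up to 0.11 without Food matched rat 5. Asns, which makes asparagine and is a widely used readout of ATF4, was at 124 ± 1.86 CPM in Lean, 86.9 ± 6.02 in Obese, 76.4 ± 6.96 in the Food matched group and 92.8 ± 6.34 CPM under Cmpd 1. It was 1.42-fold lower in Obese than in Lean animals (log2 fold change −0.51, standard error 0.06, adjusted p = 9.3e-07) and 1.21-fold higher in Cmpd 1 than in Food matched animals (0.28, standard error 0.06, adjusted p = 0.0028), without overlap in either comparison. Shmt2, the mitochondrial serine hydroxymethyltransferase, stayed between group means of 26.7 and 29.3 CPM and passed in none. The adipocyte marker list had 6 of 8 genes lower and 1 higher in Obese versus Lean, beside 24.5% and 23.7% of all genes. The lower ones include the row of Pnpla2, which did not exceed 1.22 CPM in any library. Cidec was among the lower ones (2284 ± 91.7 to 1500 ± 133 CPM), and what part adipocyte content has in the enzymes' levels was not tested.

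Of the 5 cytosolic heat shock proteins tested, 1 fell and 0 rose in Obese animals, beside 24.5% and 23.7% of all genes. In Cmpd 1 versus Food matched animals 2 fell, Hsph1 and the row named Hspa8, and 1 rose, Hspb1, where 11.4% of all genes passed in each direction, and each of these 3 calls was lost on leaving out some single rats. The row named Hspa8 (ENSRNOG00000032585, chromosome 5, 99031013 to 99033107) is 1 unbroken block of 2095 bases, whereas RefSeq places Hspa8, the constitutive HSP70, on chromosome 8. No other of the 49 rows was on a chromosome other than that in RefSeq, so this row cannot be read as the level of that gene. It was at 0.254, 0.368, 0.462, 0.571 and 0.520 CPM in Lean, 0.614, 0.530, 0.734, 0.632 and 0.691 CPM in Obese, 0.350, 0.724, 0.678, 0.561 and 0.741 CPM in Food matched rats, with 0.393, 0.285, 0.437, 0.368 and 0.351 CPM under Cmpd 1, from 12 to 56 reads. The Cmpd 1 level was 1.67-fold below that of Food matched animals (log2 fold change −0.74, standard error 0.24, adjusted p = 0.033), with overlap, and the call was lost when any of 6 rats was left out (adjusted p up to 0.082). Hsp90aa1, the stress-induced cytosolic HSP90, had 0 to 6 reads a library, and only uniquely mapped reads were counted, so near-identical copies may take up reads of both genes, which was not tested.

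Hsph1 (ENSRNOG00000000902, chromosome 12, 6322668 to 6341902), an HSP110 that serves as exchange factor for HSP70, was at 73.3, 117, 99.8, 99.6 and 99.1 CPM in Lean, 84.0, 87.2, 73.3, 78.4 and 96.8 CPM in Obese, 102, 99.0, 101, 79.4 and 97.3 CPM in Food matched rats, with 64.6, 76.0, 91.1, 70.3 and 75.5 CPM under Cmpd 1. The groups overlapped in both comparisons. Cmpd 1 animals were 1.27-fold lower than Food matched animals (log2 fold change −0.34, standard error 0.11, adjusted p = 0.026), and the call was lost when any of 5 rats was left out (adjusted p up to 0.069). The small heat shock protein Hspb1 was higher with Cmpd 1, at 264 ± 32.9 against 227 ± 14.6 CPM in Food matched animals (log2 fold change 0.22, standard error 0.08, adjusted p = 0.049), but lost the call in 13 of the 20 fits that left out 1 rat. The HSP70 co-chaperone Dnajb1 fell in Obese animals from 55.4 ± 7.86 to 48.3 ± 2.85 CPM (log2 fold change −0.20, adjusted p = 0.043). Without Lean rat 2, whose level of 69.3 CPM was the highest of the group, the difference was −0.10 (adjusted p = 0.18), and the call was lost in 5 of the 20 fits that left out 1 rat.

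Immediate early genes, which respond within minutes to handling and dissection and partly share inducers with Atf3 and heat shock genes, summed to 852 to 1101 CPM in Lean, 679 to 876 in Obese, 583 to 809 in Food matched and 559 to 702 CPM in Cmpd 1 animals. Of 11, 5 fell and 0 rose in Obese versus Lean, with Egr1 at 116 ± 30.3 and 69.5 ± 14.9 CPM and Nr4a1 at 26.5 ± 7.30 and 15.5 ± 3.00 CPM. With Cmpd 1 against Food matched 2 fell, beside 11.4% of all genes, with Fos at 30.0 ± 7.09 and 46.8 ± 10.5 CPM. The sums of Cmpd 1 and Food matched animals overlapped, and 9 of the 11 genes did not pass there. What part the handling of tissue had in the level of Atf3 was not tested.

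Further genes of the same pathways were read as lists, at an adjusted p under 0.05. Of all genes, 23.7% rose and 24.5% fell in Obese versus Lean, and 11.4% passed in each direction in Cmpd 1 versus Food matched. Of 24 other ER genes, 10 rose and 4 fell in Obese versus Lean, 2 rose and 5 fell in Cmpd 1 versus Food matched, and a single DEG, the transcription factor gene Creb3l1, fell with obesity from 86.7 ± 14.2 to 57.1 ± 3.55 CPM. Of 28 other integrated stress response genes, 19 rose and 4 fell with obesity and 11 fell and 1 rose with Cmpd 1. Among them Gdf15, a stress hormone that curbs food intake, was at 1.17 ± 0.519 CPM in Lean, 6.30 ± 0.886 in Obese, 8.26 ± 1.00 in the Food matched group and 3.94 ± 0.916 CPM under Cmpd 1 (log2 fold change 2.43, standard error 0.22, adjusted p = 2.5e-08 with obesity, and −1.06, standard error 0.21, adjusted p = 0.0012 with Cmpd 1 against Food matched). The amino acid carrier Slc7a1 had the same order, at 4.64 ± 1.04, 15.1 ± 1.51, 17.3 ± 3.08 and 8.65 ± 2.23 CPM (log2 fold changes 1.70 and −1.0). Of 23 other heat shock genes, 5 rose and 7 fell with obesity, near the shares of all genes, and 1 rose and 4 fell with Cmpd 1. The small heat shock genes Hspb6 and Hspb8 fell from 25.6 ± 13.7 to 10.8 ± 0.318 CPM and from 36.0 ± 10.5 to 20.1 ± 2.53 CPM in Obese animals. Skeletal muscle also makes both, and Lean rats 1 and 2 held muscle transcripts, but what part muscle has in the levels of these genes was not tested. Hspb7 was at 28.2 ± 7.80 CPM in the Food matched group and 13.7 ± 1.62 CPM under Cmpd 1.

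The disease and the Cmpd 1 contrasts share no animals, but all 4 groups enter 1 model and share its estimate of the spread. Their calls are set side by side here as a description. As DEGs, 3 members, Sdf2l1, Chac1 and Mthfd2, were higher in Obese than in Lean and lower in Cmpd 1 than in Food matched animals. At an adjusted p under 0.05 these were 13 members, out of 20 that were higher with obesity and 22 that were lower with Cmpd 1, namely Calr, Canx, P4hb, Dnajb11, Dnajc3, Sdf2l1, Creld2, Hyou1, Edem1, Atf4, Atf3, Chac1 and Mthfd2. Asns was lower with obesity and higher with Cmpd 1, Phgdh was lower in both, and 0 members were higher in both. The share of all genes that were called in both contrasts was not counted here. The paper reports many DEGs that its versions of these contrasts had in common, so the counts are not read as a trait of the members. The other chaperones that fell with Cmpd 1, Hspa5, Hsp90b1, Pdia3, Pdia4, Dnajb9 and Manf, had not passed the test for Obese versus Lean.

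Food matched and Obese animals, obese rats without Cmpd 1 that differed in how much food they were offered, were not told apart by the test. The ration of Food matched animals followed the intake of the Cmpd 1 group. The paper reports that this intake was lower at first and came close to that of Obese animals by the end, when the tissue was taken. By edgeR, 0 of 46 members and 0% of all genes passed at an adjusted p under 0.05. At that threshold limma-voom called 1 member and DESeq2 6, all higher in Food matched animals, and the share of all genes was not counted here for these 2 tools. As DEGs over all genes, limma-voom called 4 higher and 6 lower and DESeq2 29 higher and 40 lower, with 0 members among them. At an unadjusted p under 0.05 there were 17 members, beside 10.7% of all genes, and 10 of these were chaperones. All 15 chaperones had a fitted level above that of Obese animals, with log2 fold changes of 0.05 to 0.43, the highest for Creld2 (standard error 0.09, adjusted p = 0.073), whose 5 Food matched rats lay above all 5 Obese rats. Without Food matched rat 5, 3 members passed by edgeR, and the share of all genes in that fit was not counted here. The macrophage markers were also higher in Food matched animals in 11 of 12 cases, 6 at an unadjusted p under 0.05, and what part they have in the chaperone levels was not tested.

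Cmpd 1 versus Obese, which joins the effects of the compound and of food intake and shares animals with the contrasts above, gave weaker differences. As DEGs 3 members were lower, Chac1, Mthfd2 and the row named Hspa8, and 0 higher (background 2.8% lower and 0.731% higher). The row named Hspa8 cannot be read as the level of that gene, and its call was lost when any of 6 rats was left out. At an adjusted p under 0.05, 10 were lower and 1, Hspb1, higher (6.93% and 7.09% of all genes), and 5 of the 10 were chaperones, Hsp90b1, Calr, Canx, Pdia3 and Dnajb9. Mthfd2 was 1.67-fold lower (log2 fold change −0.74, standard error 0.19, adjusted p = 0.015), and Hspb1, at 207 ± 15.2 CPM in Obese animals, was 1.28-fold higher (0.35, standard error 0.08, adjusted p = 0.0060). Creld2 was at 28.4 ± 2.14 CPM in Obese and 28.2 ± 2.99 CPM in Cmpd 1 animals. The count of lower members fell to 1 without Cmpd 1 rat 4, to 2 without Obese rat 4, to 4 without Obese rat 5 or Cmpd 1 rat 5, to 5 without Cmpd 1 rat 2 and to 6 without Obese rat 3. It was 4 when libraries were scaled by their totals alone, where 0 chaperones passed. The DEG count fell to 0 without Obese rat 4 or Cmpd 1 rat 4 and to 1 without Cmpd 1 rat 2 or 5.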

How the data were processed

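RNA of whole iWAT from 20 rats, 5 in each group, was made into stranded mRNA libraries. The table that the authors deposited holds whole-number counts, 1 row for each Ensembl rat gene, from reads with a unique place in the genome, neither normalized nor filtered, beside gene position and length. The paper maps the reads to rn6, and the submitters' processing notes name STAR 2.5.2, featureCounts of Subread 1.5.1 and the build GRCh38, a human one. How strand was treated in counting is not given in the sources used here, so antisense overlaps cannot be told apart. Food matched samples carry the phenotype lean in their labels but obese in their titles, and they were taken as obese.

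CPM were derived after TMM scaling. A gene was dropped when at least 50% of libraries had no read of it, which kept 17653 of 32545 genes. All 4 groups entered a single quasi-likelihood fit in edgeR 4.0.16 (R 4.3.3), with 16 residual degrees of freedom, and all p-values quoted come from this test, with Benjamini-Hochberg adjustment over all genes. The test was first tried on simulated counts. Alternatives were limma-voom (limma 3.58.1), DESeq2 1.42.0, other size factors, filters and samples, and leaving out each rat. The members, the lists and the rule for named genes were chosen with earlier results of these data known, so counts over them are descriptions. Members that were DEGs in Obese versus Lean or Cmpd 1 versus Food matched, or else had the smallest p up to 2 a role, are given rat by rat, and other lists are given with at most 2 DEGs by name for each comparison. Promoter windows come from RefSeq (GRCr8), whose coordinates are not those of the count table. Not every window with a match is reported here. Replicate numbers shared between groups did not pair the rats.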

Additional observations from a re-analysis of the deposited data

Results flagged for a closer look

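In each of the 184 pairs of a tested member and a group, the highest and the lowest of the 5 rats were set against the others by Dixon's ratio on log2 CPM. In 11 pairs 1 rat stood apart, and chance alone gives about 1 in 20 such pairs. In Obese animals these were rat 3 for Calr (844 CPM, others 732 to 746), rat 5 for Pdia6 (332 CPM, others 311 to 315), rat 1 for Eif2ak3 (42.8 CPM, others 45.1 to 46.1), rat 1 for Fgf21 (10.6 CPM, others 6.11 to 6.99) and rat 5 for Hsp90aa1 (0.0588 CPM, others without reads). In Lean animals they were rat 3 for Derl2 (43.7 CPM, others 34.9 to 36.9), rat 1 for Atf6 (65.7 CPM, others 84.6 to 89.2) and rat 2 for Dnajb1 (69.3 CPM, others 50.6 to 53.6). In Cmpd 1 animals rat 4 was low for Creld2 (23.0 CPM, others 28.7 to 30.4) and rat 3 high for Dnajb1 (58.8 CPM, others 47.4 to 48.5), and in Food matched animals rat 4 was low for Hsph1 (79.4 CPM, others 97.3 to 102). Without Obese rat 1 the rise of Fgf21 was below 1.5-fold, and without Lean rat 2 the fall of Dnajb1 did not pass the test.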

How the results depend on the processing

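In Obese versus Lean, leaving out 1 rat gave 5 to 8 members higher and 3 lower as DEGs, and 19 to 21 higher and 4 to 8 lower at an adjusted p under 0.05. The other settings gave 6 to 7 higher and 3 lower as DEGs, and 17 to 21 higher and 5 to 8 lower at an adjusted p under 0.05, with 17 without Lean rats 1 and 2. In Cmpd 1 versus Food matched, leaving out 1 rat gave 3 to 5 lower as DEGs and 17 to 24 lower at an adjusted p under 0.05, and the other settings 20 to 25. For Food matched versus Obese, members higher at an adjusted p under 0.05 numbered 0 with edgeR, 1 with limma-voom, 6 with DESeq2 and 0 to 3 when 1 rat was left out. Beside the counts of limma-voom, DESeq2 and the fits without 1 rat, the shares of all genes were not counted here. Cmpd 1 versus Obese was the least stable contrast. Its lower DEGs ran from 0 to 3 and its lower members at an adjusted p under 0.05 from 1 to 12 when 1 rat was left out, and with library totals as the only scaling 4 were lower and 2 higher. DESeq2 gave 15 lower there. No member that was called in any fit changed sign in another. No scaling moved the median of all genes by more than 0.1 on the log2 scale.

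The replicate block, a fit with the rat number as a factor, gave 7 higher and 3 lower DEGs in Obese versus Lean and 4 lower in Cmpd 1 versus Food matched, as without it, and 9 lower members in place of 10 in Cmpd 1 versus Obese. It took Ern1 and Dnajb1 in Obese versus Lean and Calr in Cmpd 1 versus Obese above an adjusted p of 0.05, and it brought Ppp1r15a in Obese versus Lean (lower) and Psat1 in Cmpd 1 versus Food matched (higher) below it. Equal numbers did not mark paired rats, since the correlation of their deviations ran from −0.102 to 0.145, at most 1 of 5 pairs in a contrast exceeded 0.1, and at most 2 of 5 rats correlated best with their own number. Low counts limit the readings of Chac1, Hsp90aa1 and the row named Hspa8, which had 55, 6 and 56 reads at most, and Derl3 and Nupr1 could not be tested. The row named Hspa8 also lies on another chromosome than that gene in RefSeq, which more reads would not change.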
